A study of Mus musculus with 2 samples.

Results

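Levels of 10 nuclear receptor genes were examined in untransformed mouse myeloid progenitors: Rara, Rarg, Rxra, Rxrb, Vdr, Pparg, Ppard, Nr3c1, Nr1d1 and Nr1d2. They were matched by exact symbol to a deposited table of RPKM values, which scale read numbers to gene length and library size, and all 10 were among its 23988 genes. The cells came from bone marrow of C57BL/6 mice, depleted of lineage-positive cells and kept for 7 days in a culture with IL3, SCF and IL6, with no further treatment. There is 1 group of 2 libraries, replicate 1 and replicate 2, and leukaemia cells, which the series title names, were not analysed here. Whether these are separate cultures or animals is not stated, and the spread between them may be technical. No test was run, since p = 0.5 is the smallest value that exact permutation by sign flips allows for 2 libraries.

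Nuclear receptors are transcription factors that bind DNA and, in most cases, a small lipid-like ligand. RAR, VDR and PPAR proteins bind DNA as heterodimers with an RXR partner, the glucocorticoid receptor acts mainly as a homodimer or through other factors, and REV-ERB proteins are constitutive repressors that bind haem. Without ligand, RAR and its partner recruit corepressor complexes, and ligand exchanges these for coactivators. In the myeloid lineage, retinoic acid promotes granulocyte maturation, vitamin D promotes monocyte features, and RARA is the gene fused in human acute promyelocytic leukaemia.

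Start-site sequences are shown for Vdr and Rara, which were much higher in replicate 2, for Pparg, which was higher in replicate 1, and for Nr1d2, whose difference was opposite in sign to that of its paralogue Nr1d1. They come from RefSeq on build GRCm38.p6, which is not the authors' mm9. Each window holds 250 bases before the start and 50 after, and where a gene has several starts the most upstream is shown. Capitals mark the nuclear receptor half-site AGGTCA, the E-box CACGTG and the GC box GGGCGG, each on either strand.
Vdr, chr15:97908247-97908546, minus strand: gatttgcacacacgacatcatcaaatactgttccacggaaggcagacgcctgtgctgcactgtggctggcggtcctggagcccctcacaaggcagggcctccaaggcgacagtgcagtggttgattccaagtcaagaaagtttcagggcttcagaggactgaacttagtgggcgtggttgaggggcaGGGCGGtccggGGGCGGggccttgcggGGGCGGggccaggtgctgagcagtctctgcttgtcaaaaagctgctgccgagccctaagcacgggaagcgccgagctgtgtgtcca
Rara, chr11:98937446-98937745, plus strand: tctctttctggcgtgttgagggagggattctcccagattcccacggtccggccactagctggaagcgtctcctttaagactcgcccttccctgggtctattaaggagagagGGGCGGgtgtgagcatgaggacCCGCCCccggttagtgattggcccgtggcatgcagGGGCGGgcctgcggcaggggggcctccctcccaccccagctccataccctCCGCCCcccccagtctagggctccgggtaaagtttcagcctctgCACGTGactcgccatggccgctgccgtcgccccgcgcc
Pparg, chr6:115360894-115361193, plus strand: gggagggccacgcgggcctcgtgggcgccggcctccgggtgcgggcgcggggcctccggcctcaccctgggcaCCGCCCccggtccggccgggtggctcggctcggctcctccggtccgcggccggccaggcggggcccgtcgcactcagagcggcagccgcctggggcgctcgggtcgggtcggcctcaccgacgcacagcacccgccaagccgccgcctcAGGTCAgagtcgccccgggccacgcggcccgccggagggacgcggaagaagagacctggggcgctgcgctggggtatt
Nr1d2, chr14:18239057-18239356, minus strand: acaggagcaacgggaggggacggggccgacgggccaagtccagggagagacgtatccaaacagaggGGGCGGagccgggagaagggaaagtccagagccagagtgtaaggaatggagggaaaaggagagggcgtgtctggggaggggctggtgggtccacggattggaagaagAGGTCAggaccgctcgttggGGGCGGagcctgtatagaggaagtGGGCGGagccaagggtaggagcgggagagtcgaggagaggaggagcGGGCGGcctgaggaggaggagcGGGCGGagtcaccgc

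The Vdr window held 3 GC boxes, all within 63 bases before the start. The Rara window held 4 GC boxes and an E-box that began 12 bases after the first transcribed base. The Pparg window held a half-site 28 bases before the start and 1 GC box, and the Nr1d2 window a half-site 77 bases before the start and 5 GC boxes. The single Nr1d1 window matched none of these letters. Windows were taken for 9 of the 10 genes, 17 in all, of which 6 held a half-site, 2 an E-box and 12 a GC box. Nr3c1 was left out of this search by a filter on chromosome, so these counts do not cover it. The E-box windows are overlapping Rara windows that share the same site, and their GC boxes are likewise counted in both. Of 32851 RefSeq windows of the same length, 16.3% held a half-site, 7.15% an E-box and 35.7% a GC box. A match describes the letters and is not evidence of binding.

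All 10 genes reached 1 RPKM in both libraries, the level called detected here, as did 43.5% of all genes in the table. The 10 genes were chosen with earlier results of these data known, so this contrast is not independent of the choice. Their median was 5.83 RPKM in replicate 1 and 7.96 RPKM in replicate 2. By mean RPKM the order was Rxrb, Ppard, Nr3c1, Rara, Pparg, Rarg, Nr1d2, Rxra, Vdr and Nr1d1. On the log2(RPKM + 1) scale only 2 of the 9 neighbouring pairs in this order differed in the same direction in both libraries by a mean of more than 2 SD. These were Rxrb over Ppard, by 1.66 ± 0.08 (SD, n = 2), and Ppard over Nr3c1, by 0.44 ± 0.05 (SD, n = 2). From Nr3c1 down no neighbours were set apart by this criterion. Which gene lengths the authors used is not stated, so the order between genes holds only as far as those lengths are right.

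**Figure D1:**
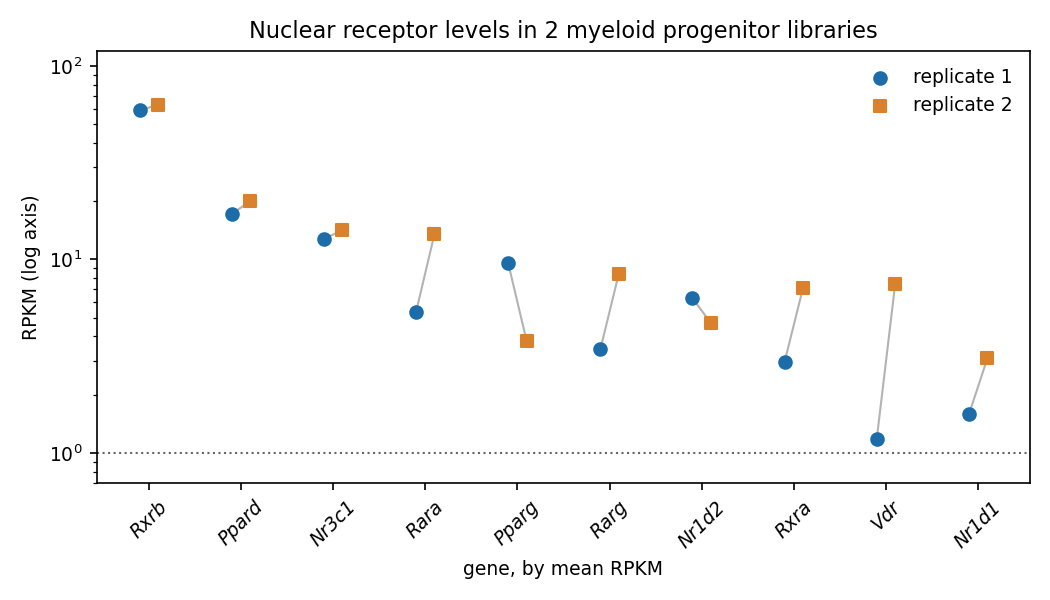
RPKM (log axis) of the 10 nuclear receptor genes in replicate 1 (circles) and replicate 2 (squares), ordered by mean RPKM, with a dotted line at 1 RPKM. Rxrb lies at the top in both libraries, whereas Vdr lies at 1.19 RPKM in replicate 1 and 7.48 RPKM in replicate 2.

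Among the retinoid receptors, Rara and Rarg, which encode receptors of all-trans retinoic acid, were both more than 2-fold higher in replicate 2. Rara stood at 5.35 RPKM in replicate 1 and 13.5 RPKM in replicate 2, and Rarg at 3.43 and 8.43 RPKM. Their balance was alike in both libraries, since Rara made up 60.9% of their summed RPKM in replicate 1 and 61.6% in replicate 2. The ratio of RPKM, replicate 2 over replicate 1, was 2.53 for Rara (95% interval 2.38 to 2.69) and 2.46 for Rarg (2.19 to 2.76). These intervals come from the smallest whole read numbers that give the observed ratio, at least 1460 and 3553 reads for Rara and at least 424 and 1003 reads for Rarg. They cover counting error only, not the spread between cultures. On the log2(RPKM + 1) scale Rara minus Rarg was 0.57 ± 0.07 (SD, n = 2), more than 2 SD. The third receptor of this family, Rarb, which retinoic acid itself induces in many cells, stood at 0.103 and 0.257 RPKM.

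The genes of the RXR partners differed widely in level. Rxrb, which is broadly expressed across tissues, stood at 59.1 RPKM in replicate 1 and 63.0 RPKM in replicate 2 and was the highest of all 49 nuclear receptor genes by mean RPKM. Rxra stood at 2.96 and 7.14 RPKM, and Rxrg at 0.0122 and 0.0127 RPKM. Rxra minus Rxrb gave a mean difference of -3.45 ± 0.67 (SD, n = 2) on the log2(RPKM + 1) scale, more than 2 SD. The gap was unequal in the libraries, with RPKM of Rxrb 19.9-fold that of Rxra in replicate 1 and 8.82-fold in replicate 2. Rxra therefore made up 4.77% and 10.2% of the summed RPKM of Rxra and Rxrb. The ratio of RPKM between libraries was 2.41 for Rxra (2.13 to 2.73, at least 377 and 874 reads) and 1.07 for Rxrb (0.980 to 1.16, at least 1101 and 1129 reads). On the log2(RPKM + 1) scale Rara minus its partner gene Rxra was 0.76 ± 0.11 (SD, n = 2), also more than 2 SD, while both genes were higher in replicate 2.

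Vdr, the vitamin D receptor gene, differed most between the libraries. It stood at 1.19 RPKM in replicate 1, just above the detection level, and at 7.48 RPKM in replicate 2. The ratio of RPKM was 6.31 (4.78 to 8.46) and rests on at least 59 and 358 reads. On the log2(RPKM + 1) scale its difference was 1.96, and 1.05% of the 10896 genes with a mean of 1 RPKM or more had one at least as large. Vdr minus Rxra, its partner gene, was -0.86 in replicate 1 and 0.06 in replicate 2, so the mean difference of -0.40 ± 0.65 (SD, n = 2) was within the spread.

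The PPAR genes encode receptors of fatty acids and their derivatives. Ppard stood at 17.2 RPKM in replicate 1 and 20.0 RPKM in replicate 2, the second highest level of the 10 genes. Pparg, known for lipid handling in macrophages and for fat cell formation, stood at 9.57 and 3.80 RPKM. It was the only one of the 10 genes more than 1.5-fold higher in replicate 1, at 2.52 times its replicate 2 level (2.32 to 2.73, at least 2157 and 823 reads). Of all genes with a mean of 1 RPKM or more, 0.486% were at least as far on the replicate 1 side. Ppard minus Pparg was 0.78 in replicate 1 and 2.13 in replicate 2, a mean of 1.46 ± 0.95 (SD, n = 2) that was within 2 SD of 0. The remaining family member, Ppara, was listed at 0 in both libraries.

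Nr3c1, which encodes the glucocorticoid receptor, varied little. It stood at 12.8 RPKM in replicate 1 and 14.1 RPKM in replicate 2, a ratio of 1.11 (1.04 to 1.18, at least 1865 and 1984 reads). Ppard was similar in this respect, with a ratio of 1.16 (1.06 to 1.27, at least 939 and 1051 reads). The counting intervals of both ratios lay just above 1, and that of Rxrb included 1. The related mineralocorticoid receptor gene Nr3c2 stood at 0.136 and 0.110 RPKM, and the androgen, oestrogen and progesterone receptor genes were all under 1 RPKM in both libraries.

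The REV-ERB genes, whose products repress the clock gene Arntl (BMAL1), differed between the libraries in opposite directions. Nr1d1 stood at 1.58 RPKM in replicate 1 and 3.08 RPKM in replicate 2, whereas Nr1d2 stood at 6.30 and 4.69 RPKM. Their sum was nearly equal, at 7.89 and 7.77 RPKM, and the share of Nr1d1 in it was 20.1% and 39.6%. The ratio of RPKM, replicate 2 over replicate 1, was 1.95 for Nr1d1 (1.49 to 2.56, at least 85 and 159 reads) and 0.744 for Nr1d2 (0.600 to 0.921, at least 211 and 151 reads). The difference of Nr1d2 was under 1.5-fold, and 16.3% of all genes with a mean of 1 RPKM or more were at least as far on the replicate 1 side. For Nr1d1, 9.80% were at least as far on the replicate 2 side. RPKM of Nr1d2 was 3.98-fold that of Nr1d1 in replicate 1 and 1.52-fold in replicate 2. The mean difference on the log2(RPKM + 1) scale, 0.99 ± 0.72 (SD, n = 2), was within 2 SD of 0. Nr1d1 overlaps the thyroid hormone receptor gene Thra on the opposite strand, over 263 bases or 8.55% of its annotated exons in GENCODE vM21. Without a stated strand setting, reads from that stretch cannot be assigned, and Thra stood at 4.94 and 6.21 RPKM. No exon of the other 9 genes overlapped another gene there.

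On the log2(RPKM + 1) scale, 5 of the 10 genes were at least 1.5-fold higher in replicate 2, against 11.3% of the 10896 genes with a mean of 1 RPKM or more. They were Rara, Rarg, Rxra, Vdr and Nr1d1. Only Pparg was as far on the other side, which held 4.26% of all such genes. At 2-fold there were 4 genes higher in replicate 2, Nr1d1 having dropped out, against 5.3% of all genes, and Pparg in the other direction against 0.734%. Rxra, at a log2 ratio of 1.04, was just under 2-fold, at 0.997, after rescaling without the 10 highest genes. By any amount, 8 of the 10 genes were higher in replicate 2, against 44.1% of all genes. The median log2 ratio of the 10 genes was 0.43, beside -0.05 over all genes. Each side is 1 library, so the differences have no replicate check.

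**Figure D2:**
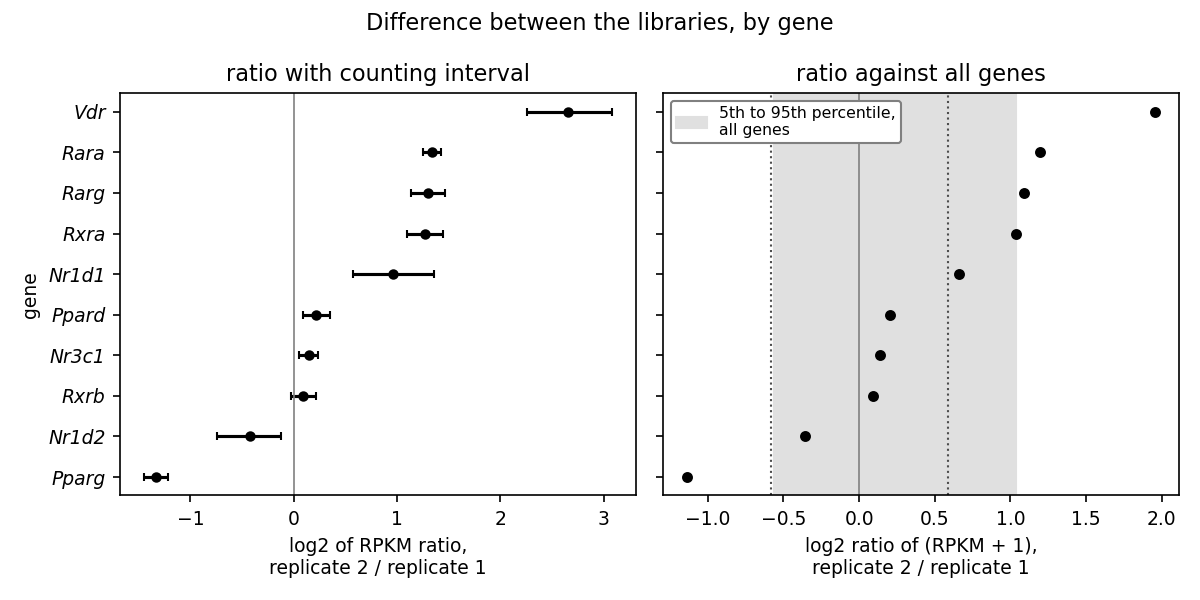
Differences of the 10 nuclear receptor genes between the libraries, replicate 2 over replicate 1. The left panel gives the log2 ratio of RPKM with 95% counting intervals, and the right panel the log2 ratio of RPKM + 1 with the 5th to 95th percentile of all genes shaded, from -0.56 to 1.03, and dotted lines at 1.5-fold. Vdr, Rara, Rarg and Rxra lie above the shaded range and Pparg below it.

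Markers of other cells moved between the libraries as well. All 12 monocyte and macrophage markers were higher in replicate 2, beside 44.1% of all genes with a mean of 1 RPKM or more. Their summed RPKM was 1309 in replicate 1 and 3558 in replicate 2. Among them were Csf1r at 22.0 and 71.0 RPKM and Lyz2 at 442 and 1853 RPKM. Of 12 mast cell and basophil markers, the 11 with a mean of 1 RPKM or more were all higher in replicate 2, with sums of 1428 and 3537 RPKM over the list. Mast cell protease genes differed far more than the sums, with Mcpt2 at 4.97 RPKM in replicate 1 and 402 RPKM in replicate 2, Cma1 at 3.55 and 211, Tpsb2 at 0.666 and 80.9, and Mcpt4 at 0.195 and 67.0 RPKM. The IgE receptor chain gene Ms4a2 stood at 43.2 and 43.3 RPKM and the basophil protease gene Prss34 at 324 and 382 RPKM. Of 10 neutrophil markers 6 were lower in replicate 2, with sums of 57975 and 47657 RPKM, and 4 were higher. The highest, S100a8 and S100a9, stood at 17987 and 13323 RPKM and at 26131 and 18619 RPKM. Past 1.5-fold were Camp and Lcn2, both higher in replicate 2, and no neutrophil marker was so in replicate 1. No lymphoid marker of 12 was detected, with sums of 1.32 and 1.33 RPKM, and Ms4a1, Ebf1, Pax5, Cd3e, Cd4 and Ncr1 were listed at 0 in both libraries. Among 11 erythroid and megakaryocyte markers 5 were detected, all of them megakaryocyte genes, and the list summed to 49.0 and 84.2 RPKM, with Hbb-b1 listed at 0. The 11 markers of stroma, endothelium and fat cells summed to 243 and 262 RPKM, of which Pecam1 and Lpl, both also found in myeloid cells, gave nearly all. The fat cell markers Adipoq, at 0.0194 and 0.0303 RPKM, and Plin1, listed at 0, were at or near 0 in both libraries. In bulk libraries, fewer cells of a type and less RNA per cell cannot be told apart, and the part of the marker differences in the receptor differences was not tested.

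Most of the rest of the family was below detection. Of the 39 other nuclear receptor genes of the mouse, 7 were detected and 11 were listed at 0 in both libraries. Of all 23988 genes, 43.5% were detected and 7211 were listed at 0 in both. The median of the 39 was 0.0167 RPKM in replicate 1 and 0.0930 RPKM in replicate 2. The 10 genes described here held 58.5% and 59.5% of the summed RPKM of all 49, and 9 of them were among the 15 highest. They were chosen with earlier results of these data known, so this contrast is not independent of the choice. The detected others were Nr1h2 (LXR beta, an oxysterol receptor) at 28.2 and 34.3 RPKM, Esrra (an orphan receptor of energy metabolism) at 25.7 and 24.0, Nr2c2 at 12.1 and 13.1, Thra at 4.94 and 6.21, Nr2f6 at 4.23 and 5.99, Nr2c1 at 4.12 and 4.95, and Nr1h3 (LXR alpha) at 1.99 and 1.25 RPKM. Nr4a1, an immediate early receptor gene, stood at 0.380 and 3.57 RPKM. Of the 9 others with a mean of 1 RPKM or more, it alone was at least 1.5-fold higher in replicate 2. The share over all such genes was 11.3%. Rora, whose product competes with REV-ERB proteins for the same DNA sites, stood at 0.368 and 1.60 RPKM.

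**Figure D3:**
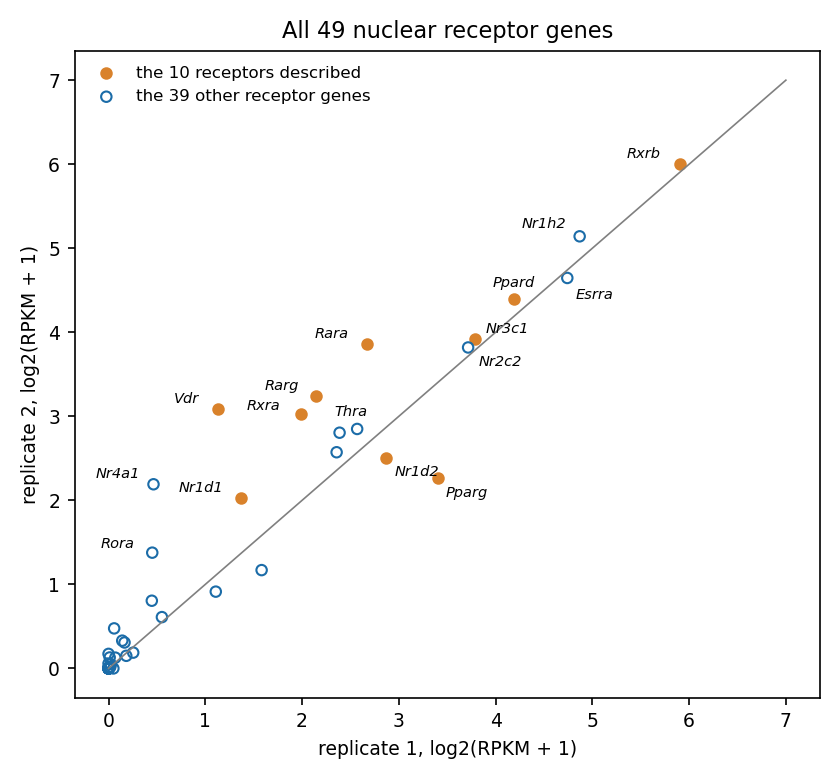
All 49 nuclear receptor genes by log2(RPKM + 1) in replicate 1 (horizontal) and replicate 2 (vertical), with the line of equal values. The 10 genes described are filled and the 39 others open, and 32 of these others were not detected. Rara, Rarg, Rxra and Vdr lie above the line and Pparg below it.

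The cofactors through which these receptors act were mostly detected, at similar levels in both libraries. Of 9 corepressor genes 8 were detected, around medians of 23.5 RPKM in replicate 1 and 20.8 RPKM in replicate 2. The deacetylase gene Hdac3 stood at 40.9 and 41.0 RPKM, Tbl1xr1 at 40.8 and 41.3, Gps2 at 28.6 and 21.1, and Ncor1, which encodes the corepressor NCoR, at 23.5 and 23.9 RPKM. Nrip1, at 1.52 and 3.06 RPKM, was the only corepressor gene at least 1.5-fold higher in replicate 2. That was 1 of 8 with a mean of 1 RPKM or more, beside 11.3% of all such genes. Lcor, at 0.574 and 0.503 RPKM, was not detected. Of 11 coactivator genes 10 were detected, the list median was 7.43 and 8.84 RPKM, and none differed 1.5-fold. Ncoa2 stood at 24.7 and 25.3 RPKM, Ncoa6 at 18.3 and 17.2, Ep300 (the acetyltransferase p300) at 16.2 and 14.8, and Kat2b at 12.8 and 12.0 RPKM. The most different coactivators were Ppargc1b at 2.81 and 1.93 RPKM and Ncoa1 at 6.69 and 8.84 RPKM. Ppargc1a, the undetected member, was listed at 0.

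Genes that make, carry and degrade retinoids were mostly low, and 5 of 17 were detected. Dhrs3, which reduces retinal back to retinol, stood at 38.7 RPKM in replicate 1 and 46.5 RPKM in replicate 2. Rdh10, which oxidises retinol to retinal, stood at 9.39 and 7.53 RPKM, and Rdh11 at 10.9 and 7.45 RPKM. Aldh1a1, which makes retinoic acid from retinal, stood at 1.03 and 3.29 RPKM, and Rbp4, the retinol carrier of plasma, at 1.99 and 8.99 RPKM. At a mean of at least 1 RPKM, these last 2 were the ones 1.5-fold or more higher in replicate 2, beside 11.3% of all such genes. Cyp26a1, whose product degrades retinoic acid and which retinoic acid induces, stood at 0.0912 and 0.748 RPKM, below the detection level in both. Of 13 genes that retinoic acid induces in other settings, 4 were detected: Cebpe, a factor of granulocyte maturation, at 156 and 131 RPKM, Tgm2 (transglutaminase) at 13.7 and 94.0, Cd38 at 6.74 and 6.09 RPKM, and Dhrs3. Of the 4 with a mean of 1 RPKM or more, Tgm2 alone was at least 1.5-fold higher in replicate 2. Over all such genes the share was 11.3%.

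The vitamin D list was small in these cells. Of 8 genes, Spp1 (osteopontin) at 153 and 279 RPKM and Cd14, a monocyte marker, at 12.8 and 51.3 RPKM were detected. Both were at least 1.5-fold higher in replicate 2, beside 11.3% of all genes with a mean of 1 RPKM or more. Cyp24a1, the vitamin D-degrading enzyme that VDR induces in many tissues, was listed at 0 in both libraries. Cyp27b1, which makes the active hormone, stood at 0.0707 and 0.0551 RPKM, and Cyp27a1 at 0.408 and 1.32 RPKM.

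PPAR target genes were expressed and split in direction. Of 17, 14 were detected, with medians of 30.9 RPKM in replicate 1 and 31.2 RPKM in replicate 2, and 7 were higher in each library. Ucp2 stood at 436 and 512 RPKM, Fabp5 at 327 and 509, Plin2 (a lipid droplet protein) at 391 and 415, and Acadl at 112 and 68.2 RPKM. Fold differences of this list are given as ratios of RPKM + 1. At 1.5-fold, 4 genes were higher in replicate 2, beside 11.3% of all genes with a mean of 1 RPKM or more. They were Cd36, a fatty acid uptake receptor, at 6.23 and 18.1 RPKM, Lpl at 45.7 and 105, Fabp4 at 38.7 and 68.7, and Fabp5. The 3 higher in replicate 1, beside 4.26% of all such genes, were Angptl4 at 5.65 and 2.89 RPKM, Acsl1 at 96.9 and 61.3, and Acadl. Pdk4 and Adipoq were among the undetected members.

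Genes for the chaperones that hold the glucocorticoid receptor were high in both libraries, and most of its targets were higher in replicate 2. Of 9 genes of chaperones and steroid activation 8 were detected, all lower in replicate 2, with a median log2 ratio of -0.43. Over all genes with a mean of 1 RPKM or more the median was -0.05, and 44.1% were higher in replicate 2. Hspa8 stood at 1159 and 819 RPKM, Hsp90aa1 at 994 and 682, Hsp90ab1 at 848 and 709, and Fkbp4 at 288 and 184 RPKM. Of the 8 detected genes, Fkbp4 alone was at least 1.5-fold higher in replicate 1. The share over all genes with a mean of 1 RPKM or more was 4.26%. Stip1 stood at 69.8 and 46.8 RPKM. Hsd11b1, which regenerates active glucocorticoid, stood at 128 and 112 RPKM, and Hsd11b2, which inactivates it, was undetected at 0.0693 and 0.240 RPKM. Of 13 glucocorticoid targets 11 were detected, and 6 of the 12 with a mean of 1 RPKM or more were at least 1.5-fold higher in replicate 2, beside 11.3% of all genes. Dusp1, a MAP kinase phosphatase that growth and stress signals also induce, stood at 3.58 and 25.3 RPKM, and Zfp36 at 14.0 and 46.6 RPKM. By any amount, 10 of the same 12 targets were higher in replicate 2, beside 44.1% of all genes, with a median log2 ratio of 0.59. Per1, at 6.33 and 9.99 RPKM, was 1.58-fold higher in replicate 2 by plain RPKM but under 1.5-fold on the log2(RPKM + 1) scale. Also under 1.5-fold were Tsc22d3 at 6.89 and 9.80 RPKM and Anxa1 at 224 and 240 RPKM. The 2 lower in replicate 2 were Fkbp5 at 75.7 and 62.5 RPKM and Nfkbia at 44.2 and 44.0 RPKM. The metallothionein genes Mt1 and Mt2 stood at 205 and 281 RPKM and at 37.2 and 67.5 RPKM.

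The clock genes around the REV-ERB genes were detected for the most part, 15 of 19. Arntl stood at 3.64 RPKM in replicate 1 and 3.15 RPKM in replicate 2 and Clock at 8.84 and 6.64 RPKM, both slightly lower in replicate 2. Bhlhe40, a repressor of the clock loop that cytokines also induce, stood at 69.1 and 110 RPKM, Csnk1d at 78.1 and 72.2, Cry1 at 11.6 and 12.1, and Csnk1e at 8.10 and 10.2 RPKM. Fold differences are given here as ratios of RPKM + 1, for the 15 clock genes with a mean of 1 RPKM or more. Of these, 3 were at least 1.5-fold higher in replicate 2, beside 11.3% of all such genes. They were Bhlhe40, Ciart at 2.18 and 6.57 RPKM, and Tef at 3.47 and 8.69 RPKM. None of the 15 was so in replicate 1, beside 4.26% of all such genes. Npas2, Dbp and Rora were among the members below detection in at least 1 library.

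**Figure D4:**
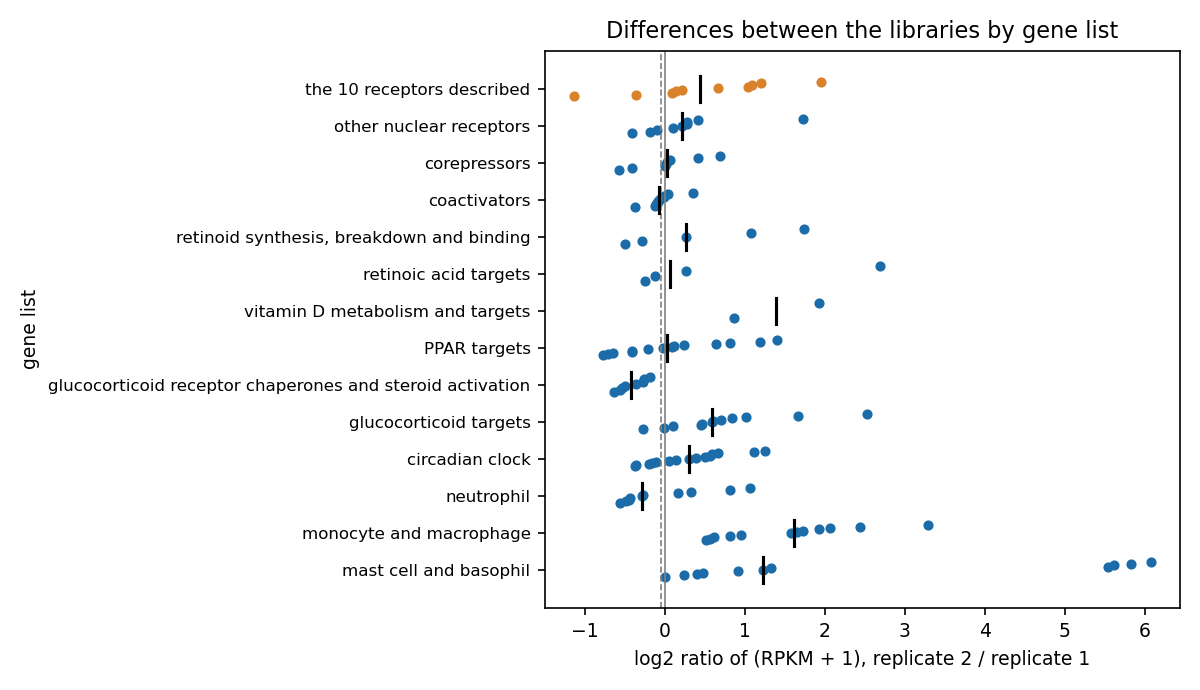
Log2 ratio of RPKM + 1, replicate 2 over replicate 1, for genes with a mean of 1 RPKM or more, by gene list. Each point is a gene, black bars are list medians, and the dashed line is the median of all genes, -0.05. The 10 receptors spread from -1.14 to 1.96, the chaperone list lies below 0, and the monocyte and macrophage list lies above 0.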

How the data were processed

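The authors deposited RPKM values, 1 column per library, for RNA purified on RNeasy columns and made into libraries with the TruSeq RNA kit, per the labels' protocols. Per the submitters' processing notes, Trimmomatic 0.32, TopHat2, HTSeq and edgeR were used with build mm9. Nothing used here states settings, annotation, gene lengths or the strand setting. Columns were assigned by name. Of 24015 rows, 27 with date-like names were left out.

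Ratios between libraries used log2(RPKM + 1) for genes with a mean of 1 RPKM or more, which understates differences of low genes. Where 474 genes had equal read numbers, their shared RPKM ratio gave a relative effective size of 0.962, replicate 2 over replicate 1, which may include a normalisation factor. The smallest whole read numbers matching each gene's ratio (relative tolerance 1e-09 plus the rounding of the table) are lower bounds. Exact binomial 95% intervals from them cover counting error only and are no narrower than true counts would give. The steps were tested on simulated data. Pairs of genes were compared as differences within each library, mean and SD over 2 libraries.

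The 10 genes, the lists and the comparisons were chosen with earlier results of these data known. Named were the 4 highest and 2 most different genes of each list, any gene behind a small count, and a few receptors whatever their value. Some genes that this rule takes are left out here. Alternatives were a pseudocount of 0.1, detection at 0.5 or 5 RPKM, no filter, centring on all genes, rescaling without the 10 highest genes, and leaving out each library. Python 3.11.15, numpy 2.4.6, pandas 2.3.3, scipy 1.17.1 and matplotlib 3.10.9 were used.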

Additional observations from a re-analysis of the deposited data

How the results depend on the processing

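The log2 ratios of all 10 receptor genes kept their sign and their side of 1.5-fold under a pseudocount of 0.1, no filter, centring on all genes and rescaling without the 10 highest genes; that of Vdr ranged from 1.92 to 2.56, that of Pparg from -1.31 to -1.09 and that of Nr1d1 from 0.62 to 0.92. The median of the 10 was 0.57 with a pseudocount of 0.1. At a minimum of 5 RPKM, 4 of the 10 genes and 3 of the 39 other receptors were detected, with 7 of 19 clock genes and 3 of 17 retinoid genes. Rxra fell under 2-fold, at 0.997, on rescaling. Vdr minus Rxra ranged from -0.86 to 0.059 when either library was left out, so its direction rests on replicate 1. Rescaling turned the median log2 ratios of corepressors and of PPAR targets to -0.029 and -0.023, and without a filter that of stroma, endothelium and fat cell markers was 0.00081. A comparison by read numbers per annotated transcript length was not run, because the read numbers are only lower bounds, which also means that depth cannot be ranked between genes. No paired analysis was possible because there is 1 group.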
